A study of Mus musculus with 6 samples.

Results

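The 71 probes described here report tRNA-derived small RNAs (tsRNAs) whose unscaled signal was lower in every infarcted mouse heart sample than in every sham sample. They were chosen from the 1767 non-control array probes whose class code is TRF, and the arrays carried 14192 small RNA probes in all. A probe was taken if its mean log2 signal over the 6 arrays lay from 8 up to, but not including, 14 (256 to 16384 intensity units), and if the highest of the 3 infarction arrays was below the lowest of the 3 sham arrays. Of the 1767, 431 lay in that range of signal, 71 of them met the rule (16.5%), and the other 360 are the comparison set. The difference between infarction and sham therefore chose the members and is given below as a description without a test.

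The samples were hearts of male C57BL/6J mice, 6 to 8 weeks old and weighing 20 to 25 g, with tissue taken on day 3 after the operation. For the group called MI (myocardial infarction), the front branch of the left coronary artery, the left anterior descending artery, was ligated and the infarcted area collected (n = 3 arrays, 1 sample each). In the sham (Sham) group a thread was passed without ligation, and the matching region was collected (n = 3 arrays). The labels do not say whether the arrays of a group come from separate animals, so the spread between arrays may be partly technical. The tissue could not be checked against markers of heart cells, because the probes carry identifiers and no names. In tissue of this kind, fewer cells that make an RNA and less of that RNA per cell cannot be told apart.

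A tsRNA is a fragment cut from a mature tRNA or from the precursor that is trimmed to make one. Under stress, ribonucleases such as angiogenin cut tRNAs in the anticodon loop, and shorter fragments are made from either end of the tRNA or from the trailer of the precursor. Some tsRNAs repress translation and some associate with Argonaute proteins. The labelling used here first removed the phosphate groups from the 3′ ends of the RNA and then joined a Cy3 dye to them, so that RNA fragments with a blocked end could be seen as well. The identifiers consist of a fixed stem, a running number and a suffix, as in ASMM10SMR20TRF100000113TV1, which is called probe 113 below. The files pair no identifier with a tRNA, a fragment or a sequence, so no sequence is shown. Levels of different probes are not comparable as amounts of RNA.

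The members gave a 1.16-fold to 2.09-fold higher unscaled signal in sham than in MI, and most of them lay close together in identifier number. The median difference, MI minus sham, was -0.64 on the log2 scale (quartiles -0.76 and -0.47, range -1.06 to -0.22), or 1.56-fold. The 360 other probes of the same signal range had a median of 0.23, and 99 of the 431 probes in the range (23%) stood higher in every MI array than in every sham array. Over all small RNA probes tested the unscaled median was 0.46, so the typical probe was brighter in MI on average while these probes were dimmer. That average does not hold for each array: the 75th percentile of signal was 66.3, 76.4 and 93.7 on the MI arrays and 48.0, 41.1 and 80.6 on the sham arrays, with sham 3 above MI 1 and MI 2. The balance depends on the scale: with each array set to its 75th percentile, 151 probes of the range were lower and 25 higher without overlap, against 71 and 99 unscaled, and 70 of the 71 stayed among the 151. With quantile normalization the counts were 64 and 99, with 54 of the 71 among the 64. All 71 were well above background on all 6 arrays. Each has 1 spot per array, and none of these spots was marked as an outlier or saturated.

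The largest differences were all found at low identifier numbers. Probe 113 (ASMM10SMR20TRF100000113TV1) gave signals of 681, 634 and 682 intensity units on the MI arrays and 1261, 1120 and 1898 on the sham arrays. Its MI arrays lay close together, while sham 3 stood well above the other sham arrays. The means were 666 ± 27.8 and 1426 ± 414 (SD, n = 3 each), a log2 difference of -1.06. Probe 368 stood at 638, 509 and 595 in MI against 912, 1171 and 1356 in sham, a log2 difference of -0.97. Here sham 1 was the lowest sham array. Probe 199 stood at 4523, 4576 and 4806 in MI against 8281, 6857 and 11924 in sham, a log2 difference of -0.92. Its lowest sham value was 1.43 times its highest MI value. Probe 587 differed by -0.92, with 1509 ± 126 (SD over 3 arrays) in MI and 2918 ± 832 in sham. Probe 145 differed by -0.88, from 314 ± 4.96 to 608 ± 249, with sham 3 alone at 892. Probe 109, the neighbour of probe 113, differed by -0.87, from 509 ± 37.8 to 940 ± 183. In these 6 probes the sham arrays were spread more widely than the MI arrays.

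The gap between groups was most often bounded by sham 2 on the sham side and, counted separately, by MI 2 on the MI side. Sham 2 was the lowest sham array in 55 of the 71 members, and MI 2 was the highest MI array in 46. Sham 3 was the highest sham array in 62. Without MI 2 the rule would take 120 probes, against 75 to 85 without any other single array. Fewer arrays are easier to separate, so these counts are to be compared with each other and not with 71. Among the other 360 probes sham 1 was the lowest sham array in 217 and sham 2 in 102, and sham 3 was the highest in 207. The median SD between arrays in the members was 0.12 in MI and 0.28 in sham (log2), against 0.27 and 0.26 in the other probes. The rule asks for separate groups and so favours probes of small spread, and nothing is read from these SDs. The array codes recorded by the scanner software start with 1 for the 3 MI arrays and sham 1, and with 2 for sham 2 and sham 3. Whether that first number marks a slide or a place on a slide is not stated. Against sham 1 alone the members had a median of -0.58 (MI mean minus sham 1). Sham 1 stood 0.11 below the mean of sham 2 and sham 3 at the median. Only on sham 3 had the signal been corrected for a trend across the array. Its processed signal was 0.712 to 1.11 times the uncorrected one in the members and 0.595 to 1.12 times in the other probes, and 70 of the 71 met the rule without that correction.

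A measure taken inside each array needs no scaling between arrays. The mean log2 signal of the members minus that of the other probes in the range was 0.86, 0.72 and 0.49 on the MI arrays and 1.90, 1.38 and 1.94 on the sham arrays. The group means were 0.69 ± 0.19 (SD over 3 arrays) in MI and 1.74 ± 0.31 in sham. The change of -1.05, a factor of 2.07, was -1.21 with sham 1 as the only sham array. It was -1.03 when the other probes were weighted to the signal of the members. The rule fixed this separation in large part, since it took the probes lower in MI and left those higher in MI among the other 360, so nothing is read from it. It holds both the lower signal of the members and the higher signal of the other probes, whose mean log2 signal was 10.1 to 10.5 on the sham arrays and 10.5 to 10.9 on the MI arrays.

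Members were more frequent among the brighter probes of the range. By mean log2 signal, they made up 6 of 104 probes (5.77%) from 8 to 9, 7 of 90 (7.78%) from 9 to 10, 10 of 49 (20.4%) from 10 to 11 and 10 of 61 (16.4%) from 11 to 12. From 12 to 13 they were 14 of 42 (33.3%) and from 13 to 14 they were 24 of 85 (28.2%). The median difference of the members in these steps stayed between -0.73 and -0.51. Above the range, 174 of the 360 probes at 16384 units or more (48.3%) were also lower in every MI array, and below it 10 of 976 (1.02%). Over all TRF probes the share was 14.4%.

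The identifier numbers, which the rule did not use, were far from evenly filled. TRF numbers run from 0 to 10066, and 50 of the 71 members had a number below 1000. There the members made up 69.4% of the 72 probes in the signal range. In each later span of 1000 numbers they made up at most 17.9%, reached by 7 of 39 probes from 8000 to 8999, and from 3000 to 3999 they were 0 of 56. The first 49 members lie between numbers 0 and 841, with at most 15 TRF probes between one and the next, and 40 probes then follow without any member before number 998. This first stretch of 177 probes, 10.0% of all TRF probes, was delimited after the values were seen and is described without a test. It holds 69.0% of the members, 39.7% of the 151 probes found with the 75th percentile and 40.8% of the 120 found without MI 2.

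The members of the first stretch differed more than those after it. Their median was -0.70 (range -1.06 to -0.41), a 1.63-fold higher signal in sham, and that of the other 22 was -0.39 (range -0.69 to -0.22), a 1.31-fold higher signal. The median gap between the lowest sham and the highest MI array was 0.32 in the stretch and 0.08 after it. The stretch holds 65 probes of the signal range, of which 49 (75.4%) are members, against 22 of 366 (6.01%) after it. Of the 16 probes of the stretch in range that missed the rule, 15 had a negative difference, with a median of -0.43. The remaining probe was higher in every MI array than in every sham array.

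Probes of the stretch outside the signal range, which the rule could not take, were lower as well where they were bright. At 16384 units or more, 48 of 67 (71.6%) were lower in every MI array, with a median of -0.32, against 126 of 293 (43.0%) and a median of -0.16 after the stretch. Below 256 units, 7 of 45 (15.6%) were lower, against 3 of 931 (0.322%). The medians of these dim probes were positive on both sides, at 0.21 and 0.55. These differences between the stretch and the later numbers were not tested.

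Members often lay next to each other in number. No member had another member 1 number away, because TRF numbers mostly advance in steps of 4. Of the 71, 42 (59.2%) had a member as the next TRF probe above or below in number. Of the other 360 probes of the range, 14 (3.89%) had a member next to them. Among 201 pairs of adjacent probes that were both in the signal range, 26 pairs held 2 members, 15 held 1 and 160 held none. In the first stretch, 24 of 34 such pairs held 2 members, and after it 2 of 167. The members formed 29 runs of 1 probe, 8 runs of 2, 7 runs of 3 and 1 run of 5.

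Probes near a member but outside the signal range could not be taken by the rule itself. The members they lie near were chosen by the same contrast on the same arrays. The permutation tests below are therefore not independent of the rule. There were 47 within 5 numbers of a member, 26 of them at 16384 units or more. Their mean log2 signal minus that of the 1289 other probes outside the range was 3.16, 3.02 and 3.07 on the MI arrays and 3.49, 3.54 and 3.36 on the sham arrays. All 3 MI values lay below all 3 sham values. The change was -0.38, from 3.47 ± 0.09 in sham to 3.08 ± 0.07 in MI (SD, n = 3 each), with an exact two-sided permutation p of 0.1, the smallest that 3 arrays against 3 allow. Most of the 1289 were dim, and dim probes were brighter in MI. Against the 334 other probes of at least 16384 units, a comparison added after the values were seen, the 26 bright neighbours differed by -0.17 between the groups, with an exact permutation p of 0.1. Their values were -0.05, -0.06 and -0.02 in MI and 0.19, 0.04 and 0.16 in sham. Both p-values stay at 0.1 after Benjamini-Hochberg adjustment over these 2 comparisons, so neither passes 0.05. Of the 26 bright neighbours 18 (69.2%) were lower in every MI array, against 156 of the 334 (46.7%). Of these 26, 22 lie in the first stretch, where the share among all bright probes was 71.6%, so lying near a member and lying in the stretch were not separated. Whether probes of neighbouring numbers share sequence is not known here, so they may report the same RNA. The choice of the members could then carry over to their neighbours, so nothing is read from these p-values.

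The numbers also fall into small blocks, since a step of 12 or more divides them, most often into blocks of 9 probes (72 of the blocks). The first stretch touches 21 such blocks, of which 19 hold at least 1 member and 11 hold 3 or more. Of the 260 later blocks 18 hold a member and 0 hold 3 or more. Blocks of exactly 9 probes can be compared by place. In the 18 such blocks of the first stretch, places 1 to 5 held 10, 9, 6, 6 and 4 members and places 6 to 9 held 4, 3, 3 and 0. Place 9 was at 16384 units or more in all 18, outside the range, and its median difference was -0.16. Places 4 and 5, mostly bright, were lower in every MI array in 17 and 15 of the 18 blocks. In the 54 later blocks of 9 probes, places 1, 2 and 3 held 0 members each and their median differences were 0.55, 0.62 and 0.43, against -0.56, -0.54 and -0.55 in the first stretch. At place 9 the medians were -0.16 in both, and that probe was lower in every MI array in 9 of the 18 and 19 of the 54 blocks. These differences between blocks were not tested.

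Single blocks show how members sit beside brighter and dimmer probes. These blocks were picked after their values were seen. In the block from 752 to 777, the first 5 probes form the longest run of members. Probe 752 stood at 527, 546 and 667 in MI against 792, 689 and 1006 in sham, and probe 760 at 6467, 6319 and 7316 against 10918, 9522 and 14045. Probe 766 stood at 10212, 12069 and 11064 against 17736, 14529 and 23729, so that probes of quite unlike signal differed by -0.51, -0.76 and -0.72. The last probe of the block, 777, was very bright and did not separate the groups, at 153407 ± 6409 (MI) against 152875 ± 6205 (sham, SD over 3 arrays each). In the block from 273 to 304, 8 of 9 probes were lower in every MI array. Its members 277, 285, 289 and 293 differed by -0.87, -0.87, -0.84 and -0.77. Probe 281 lies between them, just above the range at a geometric mean of 16591 units (taken on the log2 scale), and differed by -1.05. The exception, probe 300, stood at 69692, 91815 and 83679 in MI and at 78120, 69786 and 74724 in sham, where the groups overlap.

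Probes 809, 813 and 817 had another order of sham arrays. Probe 813 stood at 1187, 1034 and 1145 in MI against 1402, 2168 and 1686 in sham. Sham 1, whose array code starts with the same number as those of the MI arrays, was the lowest and sham 2 the highest. Probe 809 stood at 550, 490 and 579 against 666, 958 and 950, and probe 817 at 3072, 2585 and 2760 against 3784, 5256 and 5550. Sham 1 was the lowest sham array in all 3.

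Of the 22 members after number 841, 2 pairs were adjacent. Probe 5134 stood at 264, 381 and 277 in MI against 498, 412 and 568 in sham, and probe 5139 at 1902, 2264 and 1746 against 3538, 2819 and 3078. They differed by -0.69 and -0.68, close to the median of the first stretch. The other pair, 7118 and 7122, differed by -0.31 and -0.23. Probe 8006, a lone member, stood at 1495, 1372 and 1485 in MI and 1852, 1984 and 1989 in sham, a log2 difference of -0.42. The smallest difference of any member was that of probe 998, at 1004, 1100 and 1056 against 1153, 1300 and 1228, or -0.22.

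Near the limits of the rule the members differ little from probes that missed it. The smallest gaps were those of probes 8206, 7118 and 7950, whose lowest sham value exceeded the highest MI value by factors of 1.004, 1.01 and 1.01. Probe 8206 stood at 10859, 13779 and 11617 in MI and 13828, 13929 and 17135 in sham. Just outside were probes 2802, 5962 and 6138, with factors of 0.996, 0.992 and 0.986. The scanner software gave these signals an error of 10% at the median, so single values this close are not told apart. The largest gaps were those of probes 113, 109 and 709, at factors of 1.64, 1.44 and 1.43. The means at the bounds are geometric, taken on the log2 scale as in the rule. At the lower bound, probe 559 had a geometric mean of 263 units and differed by -0.44. Probe 8034, just below the range at 251, differed by -0.22 without overlap. At the upper bound, probe 6026 had a geometric mean of 16178 and differed by -0.54. Probe 3371, just above at 16423, differed by -0.17 without overlap. Among the 3 dimmest members were also probe 16, at 238, 261 and 333 against 354, 342 and 465, and probe 285, at 249, 294 and 283 against 455, 367 and 756. Probe 372 was among the 3 brightest members and stood at 11480, 12428 and 13106 against 18255, 18017 and 24296.

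The members were also looked up in a fit over all small RNA probes that was scaled between arrays. Each array was set to the 75th percentile of its probes, which lowered every difference by about the same amount. limma then called 51 of the 71 lower in MI at an adjusted p under 0.05, where it called 3.79% of the 11974 small RNA probes and 5.57% of the 1758 TRF probes tested. Of the 51, 45 lie in the first stretch and 6 after it, and 4 of the 360 other probes of the range were called lower. Because the rule used the same contrast, nothing is read from these counts. Without scaling limma called 0 of the 71, and 0% of all probes, lower. At an unadjusted p under 0.05, 32 of the 71 and 235 of the 11974 were lower. Scaling by the median, quantile normalization and scaling to probes of high signal gave 24, 3 and 0 of the 71, where they gave 0.894%, 0.76% and 0.0585% of all probes. With the first number of the array code as a block, limma also called 0 of the 71 and 0% of all probes. Unadjusted, 67 of the 71 and 1395 of the 11974 were lower. The median difference of the members was -1.29 with this block, against -1.17 without it. No call was made without MI 2 (unadjusted 70 of the 71 and 2009 of the 11974) or without sham 1 (67 and 1278). The number called was 21 without MI 3 and 27 without sham 2, against 94 and 142 of all probes. The rule used this contrast, so nothing is read from these counts either.

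Place on the array and local background were not used by the rule. The median local background around their spots was 12 units in both groups, and 11.5 around those of the other 360 probes. Of the members 34 (47.9%) lay in the upper rows of the array and 40 (56.3%) in the left columns, against 55.8% and 50.0% of the other probes. With the rows cut into 4 equal bands, the bands held 20, 14, 24 and 13 members, and the third band held 33.8% of the members and 21.9% of the other probes. These shares were not tested.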

How the data were processed

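Small RNA of 6 mouse heart samples, 100 ng total RNA each, was hybridised to 1-colour arrays. The values the authors deposited are linear spot intensity, read by Agilent Feature Extraction 11.0.1.1 (named in the submitters' processing notes). Per the file headers, local background was subtracted, and arrays were not scaled to each other. Samples were grouped by their titles.

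The rule was applied to unscaled log2 processed signal with no spot left out. The members, the lists and the tests were chosen with earlier results of these data known. Differences were fitted with limma 3.58.1 in R 4.3.3 on every small RNA probe marked well above background by the scanner software in 3 or more arrays, with outlier spots left out (16 to 33 per array), each array minus its 75th percentile, and Benjamini-Hochberg adjustment at 0.05. The fit was run on simulated data with changes larger than those of the members and no effect shared across an array. That run checks the code only and gives no accuracy for these data. Array intensities give no counts, and 3 arrays a group limit the precision.

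Named probes were the 6 largest differences, the 3 highest and 3 lowest signals, the 3 smallest and 3 largest gaps, the 3 probes just short of the rule and the probes nearest the bounds. Planned runs with steps of 1 in number, and the test of neighbours 1 number away, had no probe. Runs in identifier order and neighbours within 5 numbers took their place. Blocks, the first stretch and their probes were named after their values were seen. Alternatives were other scalings, background corrections (normexp with an offset of 50), filters and signal ranges. The first number of the array code or the replicate number was a block, and each array was left out in turn.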

Additional observations from a re-analysis of the deposited data

How the results depend on the processing

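The number of probes that met the rule was 71. It was 151 with scaling by the 75th percentile and 142 by the median, which lower the MI mean relative to the sham mean, and 111 and 41 with log2 signal ranges of 7 to 15 and 9 to 13. Over single arrays left out, which makes the rule easier to meet, it was 75 to 120, with 120 without MI 2. In 5 other settings it was within 1.5 times. The first stretch held 69.0% of them, 39.7% and 40.1% under those scalings, 81.25% with quantile normalization, 55.9% in the wider range, and 40.8% to 71.8% over single arrays left out, again lowest without MI 2. Of the 71, limma called 51 lower, and 454 of all 11974 probes. It called 24 with median scaling (107 of all), 11 with another variance model (298 of all) and 3 with quantile normalization (91 of all). With no scaling, and with the array code as a block, it called 0 of the 71 and 0 of all lower. Scaling to probes of high signal gave 0 of the 71 and 7 of all lower (unadjusted 45 and 324). Higher in MI were 33 of all with no scaling, 0 with the block and 92 with scaling to probes of high signal. With the 75th percentile 37 of all were called higher. With sham 1 as the only sham array, the median difference of the members was -1.29. Over single arrays left out it called 0 to 71 of the members. The 71 came without sham 3, where 1420 of all probes were lower. Quantile normalization turned the sign of 1 member, probe 6006, to 0.11. Replicate number as a block gave 69 of the members and 1046 of all 11974 probes. Deviations of same-numbered arrays correlated at 0.118, -0.221 and 0.159. The labels do not say whether the replicate numbers pair the samples, and these values do not settle it. The change of members against other probes was -1.23 to -0.95 over single arrays left out, and that of neighbours outside the range -0.43 to -0.34, -0.25 with normexp, or -1.13 as a median over probes (-0.38 as reported). Members with a member neighbour were 0 at 1 number and 42 both in identifier order and within 5 numbers, and 0 at 1 number with any array left out. The causes of these changes were not tested.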
